A study of Mus musculus with 17 samples.

Results

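The interleukin-1 (IL-1) family and inflammasome genes were described in mouse macrophages from polyA RNA-seq values of 13 libraries. The 10 members were taken by gene symbol from a table of 24453 gene models, and each symbol matched 1 model. The list was drawn up with earlier results of these data known. They are the agonists Il1a, Il1b, Il18 and Il1f9, the antagonist Il1rn, the receptor chains Il1r2 and Il1rap, the caspases Casp1 and Casp4, and the sensor Nlrp3.

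As background, IL-1α and IL-1β bind the same receptor, which signals only once the accessory chain IL1RAP joins it. The receptor antagonist, encoded by Il1rn, occupies that receptor without recruiting the accessory chain, and the decoy receptor encoded by Il1r2 captures agonist without a signal. IL-1β and IL-18 are made as inactive precursors. Caspase-1 cleaves them after a sensor such as NLRP3 assembles an inflammasome, so macrophages control the pathway both by priming transcription through receptors such as TLR4 and by protein activation. Caspase-11, encoded by Casp4, responds to cytosolic lipopolysaccharide. Il1f9 encodes IL-36γ, an agonist of a related receptor that also pairs with IL1RAP.

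Thioglycollate-elicited macrophages (TGEMs) are primary peritoneal cells of 8-week-old mice, labelled male, whose medium received PBS as vehicle or the TLR4 agonist Kdo2 lipid A (KLA) for 1 h. There were 2 C57Bl/6EiJ libraries, of which 1 was vehicle, and 3 Balb/cJ libraries, of which 1 was vehicle. Immortalised bone marrow-derived macrophages (iBMDMs) are a C57Bl/6EiJ line labelled male, transformed with Myc and a mutant Braf and carrying Cas9. The 4 iBMDM groups, with 2 libraries each, were a scramble control (Scramble, whose library titles carry the word zsGreen) and 3 knockouts of genes for AP-1 transcription factors. Atf3KO targets Atf3, JunKO targets Jun, and JunDKO targets Jund. All iBMDM libraries carry the label vehicle, so no member was measured in stimulated knockout cells. Edited cells were sorted by a marker on the guide virus and are populations, not clones, and all 4 groups share the transforming genes. Label dates differ within Atf3KO and within Balb/cJ KLA, and are shared within the other iBMDM groups. Nothing else in the labels ties the libraries of a group to separate cultures or mice. The p-values therefore measure only the spread between these libraries.

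Depth, recovered from the steps of the RPKM values, was 1553296 to 18444434 reads per library. The deepest and the shallowest library were JunDKO replicates 2 and 1. Xist was at 19.2 to 28.1 RPKM in the TGEM libraries and Ddx3y at 0, against the male label. Atf3 was at 80.7 and 77.4 RPKM in Scramble and at 154 and 169 RPKM in Atf3KO, Jun at 17.6 and 18.5 RPKM in Scramble and at 26.2 and 20.5 RPKM in JunKO, and Jund at 9.19 and 8.33 RPKM in Scramble and at 6.94 and 6.07 RPKM in JunDKO. Reads over exons do not check an edit that leaves the transcript in place. The authors checked the knockouts by western blot, and reported a large loss of Jun ChIP-seq binding in Jun knockout iBMDMs. All 8 macrophage markers were above 1 RPKM in each of the 13 libraries. Their summed level was 16830 to 33030 RPKM in iBMDMs and 8015 to 11010 RPKM in TGEMs. TGEM libraries also held B cell markers (10.1 to 23.9 RPKM summed over 4), mast cell markers (1.78 to 18.6 RPKM over 4) and mesothelial and fibroblast markers (21.7 to 40.3 RPKM over 4), which in iBMDMs summed to at most 0.549 RPKM. The 8 neutrophil markers summed to 1.10 RPKM in the C57Bl/6EiJ KLA library and 10.2 RPKM in its vehicle, and to 13.2 and 2.27 RPKM in the Balb/cJ KLA libraries and 13.4 RPKM in their vehicle. In bulk libraries fewer cells of a type and less RNA per cell cannot be told apart.

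The members lie on 5 chromosomes (GRCm38, 1-based). On chromosome 2 are Il1f9 (NM_153511, chr2:24186476-24193567), Il1rn (NM_001159562, chr2:24345291-24351491), Il1a (NM_010554, chr2:129299610-129309972) and Il1b (NM_008361, chr2:129364578-129371139). Il1a and Il1b are neighbours on the minus strand, 54.6 kb apart with no model between them. Il1f9 and Il1rn are 151.7 kb apart, with Il1f6, Il1f5 and Il1f10 between them. Casp1 (NM_009807, chr9:5298517-5307281) and Casp4 (NM_007609, chr9:5308849-5336791) are adjacent with a gap of 1567 bases, and Il18 (NM_008360, chr9:50565368-50581837) is farther along chromosome 9. Nlrp3 (NM_145827, chr11:59542686-59566956), Il1rap (NM_008364, chr16:26581705-26717748) and Il1r2 (NM_010555, chr1:40084768-40125226) lie apart from the rest. All 10 models are protein-coding. The Il1a, Il1b, Il1r2 and Il1rap models each overlap 1 model on the other strand. Whether the counting used strand was not given in the sources used here, so reads of these pairs cannot be told apart.

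Promoters are shown for Il1a, Il1b and Nlrp3, which were called with KLA, and for Il1rn and Il1f9, which were called in more than 1 knockout against Scramble. AP-1 factors were the edited genes and TLR4 the stimulated receptor. Each sequence is the 250 bases upstream of a RefSeq start (GRCm38.p6), read 5′ to 3′ on the gene's strand, with any motif found in capitals. The motifs searched on both strands of the windows of 300 bases around starts were the AP-1 element TGACTCA, the cyclic AMP element TGACGTCA, the kappaB consensus, the C/EBP element TTGCNNAA and the PU.1 element GAGGAAGT. The capitals below mark the AP-1 element, or in the upstream Nlrp3 window the kappaB consensus. The window of the counted Il1rn start, which held none of these motifs, is not printed because it overlaps an untranslated exon of a predicted transcript.
Il1a (chr2:129309973-129310222, minus strand): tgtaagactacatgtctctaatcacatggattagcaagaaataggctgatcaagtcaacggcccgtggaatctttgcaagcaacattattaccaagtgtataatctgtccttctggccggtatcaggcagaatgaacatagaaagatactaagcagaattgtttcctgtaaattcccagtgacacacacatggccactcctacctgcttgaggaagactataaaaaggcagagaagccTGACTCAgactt
Il1b (chr2:129371140-129371389, minus strand): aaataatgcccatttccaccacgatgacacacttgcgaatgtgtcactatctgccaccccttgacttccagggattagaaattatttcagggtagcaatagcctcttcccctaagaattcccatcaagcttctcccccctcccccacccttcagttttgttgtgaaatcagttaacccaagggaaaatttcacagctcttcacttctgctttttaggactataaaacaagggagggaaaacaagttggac
Il1rn, upstream start (chr2:24336610-24336859, plus strand): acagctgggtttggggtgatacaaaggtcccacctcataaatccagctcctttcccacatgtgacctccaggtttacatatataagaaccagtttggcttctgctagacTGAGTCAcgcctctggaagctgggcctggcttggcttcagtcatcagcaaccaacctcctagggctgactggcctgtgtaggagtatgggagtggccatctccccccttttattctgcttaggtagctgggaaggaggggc
Il1f9 (chr2:24186226-24186475, plus strand): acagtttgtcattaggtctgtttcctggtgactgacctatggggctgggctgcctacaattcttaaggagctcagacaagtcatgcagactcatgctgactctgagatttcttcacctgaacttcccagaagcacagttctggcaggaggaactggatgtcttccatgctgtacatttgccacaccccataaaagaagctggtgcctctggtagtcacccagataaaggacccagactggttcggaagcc
Nlrp3, upstream start (chr11:59541319-59541568, plus strand): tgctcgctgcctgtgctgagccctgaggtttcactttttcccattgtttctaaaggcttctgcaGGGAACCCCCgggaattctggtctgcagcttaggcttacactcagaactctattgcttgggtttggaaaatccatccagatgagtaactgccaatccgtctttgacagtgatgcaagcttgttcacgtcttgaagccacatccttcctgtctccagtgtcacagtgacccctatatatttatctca
Nlrp3, start of the counted model (chr11:59542436-59542685, plus strand): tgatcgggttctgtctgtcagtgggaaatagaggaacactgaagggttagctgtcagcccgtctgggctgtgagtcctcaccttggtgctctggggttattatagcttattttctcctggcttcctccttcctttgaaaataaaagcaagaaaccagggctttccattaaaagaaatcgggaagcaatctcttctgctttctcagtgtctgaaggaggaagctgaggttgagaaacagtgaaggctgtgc

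The AP-1 element began 12 bases upstream of the Il1a start as TGACTCA and 141 bases upstream of the upstream Il1rn start as TGAGTCA. It was in 5.20% of 32851 windows over all genes. None of the other 12 windows of the members held it, including those of Il1b, Il1f9 and the counted Il1rn and Nlrp3 models. The kappaB consensus, present in 8.46% of windows, was found in both Casp4 windows and in the window of the upstream Nlrp3 start, with matches that overlap each other in Casp4. The cyclic AMP element (1.79% of windows), the C/EBP element (10.8%) and the PU.1 element (3.20%) were in none of the 14 windows of the 10 members. These are matches of letters and not measured sites.

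Whether KLA raised the members was asked in TGEMs. Il1a, Il1b and Nlrp3 rose, and the other 5 tested members, among them Il1rn, Casp1 and Il18, did not pass the test. A call needed a limma-trend adjusted p under 0.05, a 2-fold difference, and 16 RPKM or more as the mean of one group. Of 8 members tested 3 were called, all higher, where 1.13% of 10357 tested genes were called. The adjusted p alone was passed by the same 3 members and by 1.53% of genes. Il1f9 and Il1r2 were under the mean of 1 RPKM needed for testing. The median difference of the 8 tested members was 0.73 on the log2 scale and that of all tested genes -0.15.

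Il1b had the largest difference of the members. It was at 4.45 RPKM in the C57Bl/6EiJ and 3.19 RPKM in the Balb/cJ vehicle library, at 424 RPKM in the C57Bl/6EiJ KLA library and at 1899 and 1719 RPKM in the Balb/cJ KLA libraries. The 3 KLA libraries lay far above both vehicle libraries. The log2 difference of RPKM + 1 was 7.70 ± 0.52 (SE, 3 against 2 libraries), with a limma-trend adjusted p of 6.46e-04. Il1a, whose vehicle level was higher than that of Il1b, was at 16.2 and 30.4 RPKM in the C57Bl/6EiJ and Balb/cJ vehicle libraries. With KLA it was at 471 RPKM in C57Bl/6EiJ and at 2084 and 1021 RPKM in Balb/cJ. The groups did not overlap, and the log2 difference was 5.21 ± 0.38 (limma-trend adjusted p = 8.97e-04).

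Nlrp3 was at 4.79 RPKM in the C57Bl/6EiJ and 2.77 RPKM in the Balb/cJ vehicle library. It was at 56.96 RPKM in the C57Bl/6EiJ and at 219 and 123 RPKM in the Balb/cJ KLA libraries. The log2 difference was 4.54 ± 0.50 (limma-trend adjusted p = 0.00529). KLA libraries were therefore above vehicle libraries for the sensor as well as for both IL-1 agonists, a separation seen in either direction for 23.7% of tested genes. Without the Balb/cJ vehicle library the Il1a and Nlrp3 calls were lost (adjusted p = 0.103 and 0.185), which leaves the C57Bl/6EiJ pair alone to give the difference, and Il1b kept its call (0.0360). Nlrp3 also lost its call with the label date in place of strain (4.595, adjusted p = 0.0590). With no filter on low values all 3 calls were lost (adjusted p = 0.519 for Il1a, 0.522 for Il1b and 0.597 for Nlrp3), with the same log2 differences (5.21, 7.70 and 4.54). Of all 24453 genes in that fit, limma-trend called 0 and 6 passed the adjusted p. Over the 17 alternatives the adjusted p was 4.91e-06 to 0.519 for Il1a, 6.08e-06 to 0.522 for Il1b and 1.00e-04 to 0.597 for Nlrp3.

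**Figure D1:**
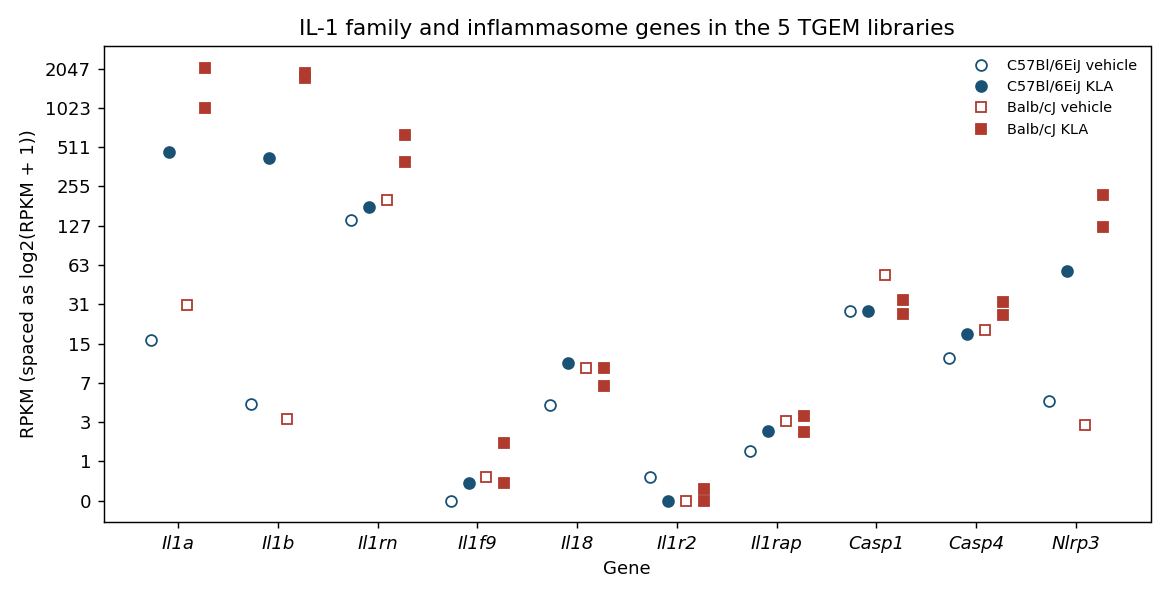
RPKM of the 10 members in each of the 5 TGEM libraries, spaced as log2(RPKM + 1). Open symbols are vehicle and filled symbols KLA libraries, circles C57Bl/6EiJ and squares Balb/cJ. Filled symbols stand above open symbols of both strains for Il1a, Il1b and Nlrp3, while Il1f9 and Il1r2 stay under 2 RPKM.

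The antagonist did not pass the test. Il1rn was already at 141 and 199 RPKM in the C57Bl/6EiJ and Balb/cJ vehicle libraries, and with KLA at 176 RPKM in C57Bl/6EiJ and at 630 and 391 RPKM in Balb/cJ. The groups overlapped, since the C57Bl/6EiJ KLA library was below the Balb/cJ vehicle library, and the log2 difference was 0.89 ± 0.35 (limma-trend adjusted p = 0.306). The balance of transcripts turned over all the same. Il1rn was 6.82 and 5.93 times the sum of Il1a and Il1b in the vehicle libraries, and that sum was 5.09 times Il1rn in the C57Bl/6EiJ and 6.33 and 7.01 times Il1rn in the Balb/cJ KLA libraries.

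Neither caspase passed the test. Casp1 was at 27.6 and 52.9 RPKM in the C57Bl/6EiJ and Balb/cJ vehicle libraries and at 27.2, 33.6 and 25.9 RPKM with KLA (-0.48 ± 0.30, limma-trend adjusted p = 0.477). Casp4 was at 11.5 and 19.4 RPKM with vehicle and at 17.8, 32.4 and 25.6 RPKM with KLA (0.57 ± 0.25, adjusted p = 0.343). Both were detected in every TGEM library, with at least 65 reads. Il1rap was at 1.38 to 3.48 RPKM over the 5 libraries (0.18 ± 0.30, limma-trend adjusted p = 0.808). Il1r2 had 8 reads in the C57Bl/6EiJ vehicle and 2 in a Balb/cJ KLA library and 0 in the other 3. Il1f9 had 50 reads in Balb/cJ KLA replicate 1, the deepest TGEM library, and at most 4 in any other. Il18 was higher with KLA in the single C57Bl/6EiJ pair and not in Balb/cJ. It was at 4.39 RPKM with vehicle and 10.4 RPKM with KLA in C57Bl/6EiJ, and at 9.45 RPKM with vehicle and 9.39 and 6.55 RPKM with KLA in Balb/cJ (pooled 0.33 ± 0.35, limma-trend adjusted p = 0.682).

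The sizes of the KLA responses were set side by side for the strains. Il1b was 95.3 times its vehicle level in C57Bl/6EiJ and 596 and 539 times in Balb/cJ. For Il1a the ratios were 29.2 in C57Bl/6EiJ and 68.5 and 33.6 in Balb/cJ, and for Nlrp3 they were 11.9 in C57Bl/6EiJ and 79.1 and 44.6 in Balb/cJ. All Balb/cJ ratios of these genes exceeded the C57Bl/6EiJ ratio. Both Balb/cJ ratios of a gene share 1 vehicle library, which held 10 reads of Il1b, 26 of Nlrp3 and 140 of Il1a, and KLA replicate 2 carries another label date than that library. The interaction of treatment and strain came from a limma-trend fit with 1 residual degree of freedom. In it Il1b differed by 2.47 ± 0.54, Nlrp3 by 2.13 ± 0.71 and Il1a by 0.76 ± 0.83. Of 10357 genes 0 passed the adjusted threshold and 835 had an unadjusted p under 0.05. Over the 104 genes called higher with KLA the median log2 difference was 2.86 in C57Bl/6EiJ and 4.04 and 3.76 in Balb/cJ. In Balb/cJ KLA replicates 1 and 2, 86 and 77 of the 104 had a larger difference than in C57Bl/6EiJ. The 104 genes were selected on the same libraries.

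Between the strains, 0 of the 8 tested members were called by limma-trend, against 1.16% of all genes, and 0 passed the adjusted p alone, against 2.31%. At an unadjusted p under 0.05, which 21.4% of all genes had, there were 3, Il1a (1.31 ± 0.38, adjusted p = 0.122), Il1rn (1.07 ± 0.35, adjusted p = 0.152) and Casp4 (0.68 ± 0.25, adjusted p = 0.183), all higher in Balb/cJ. Limma-voom on the recovered reads called Il1a, Il1b and Il1rn (adjusted p = 0.0157, 0.00892 and 0.0258) where it called 2.95% of genes, and a fit of all 13 libraries called Il1a and Il1rn (0.0477 and 0.0449) where it called 2.61%. Balb/cJ reads were aligned to a genome of that strain and carry other label dates, so strain, alignment and date cannot be told apart. The strain difference correlated with GC content across 10318 genes at a Spearman's rho of -0.44, a description over genes that share their libraries.

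Whether loss of an AP-1 factor changed the members in resting cells was asked in iBMDMs. Il1f9 was called lower in all 3 knockouts and Il1rn in Atf3KO and JunDKO. Il18 was near 0 in Atf3KO, and Il1a and Il1r2 were hardly detected in any group. Each knockout was compared with the same 2 Scramble libraries, so the 3 comparisons are not independent. In Atf3KO 3 of 8 tested members were called, all lower, where 12.5% of 10691 tested genes were called, and 5 passed the adjusted p alone, where 41.2% of genes did. In JunKO 1 was called, where 0.196% of genes were, and the same member alone passed the adjusted p, where 0.281% of genes did. In JunDKO 2 were called, where 4.97% of genes were, and 3 passed the adjusted p, where 11.7% of genes did. The median log2 difference of the tested members was -0.99 in Atf3KO, -0.31 in JunKO and -0.61 in JunDKO, and that of all genes 0.05, 0.01 and 0.23. The JunDKO shift of all genes means that each difference there is measured against a raised centre. Il1a and Il1r2 were under the mean of 1 RPKM needed for testing in iBMDMs.

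**Figure D2:**
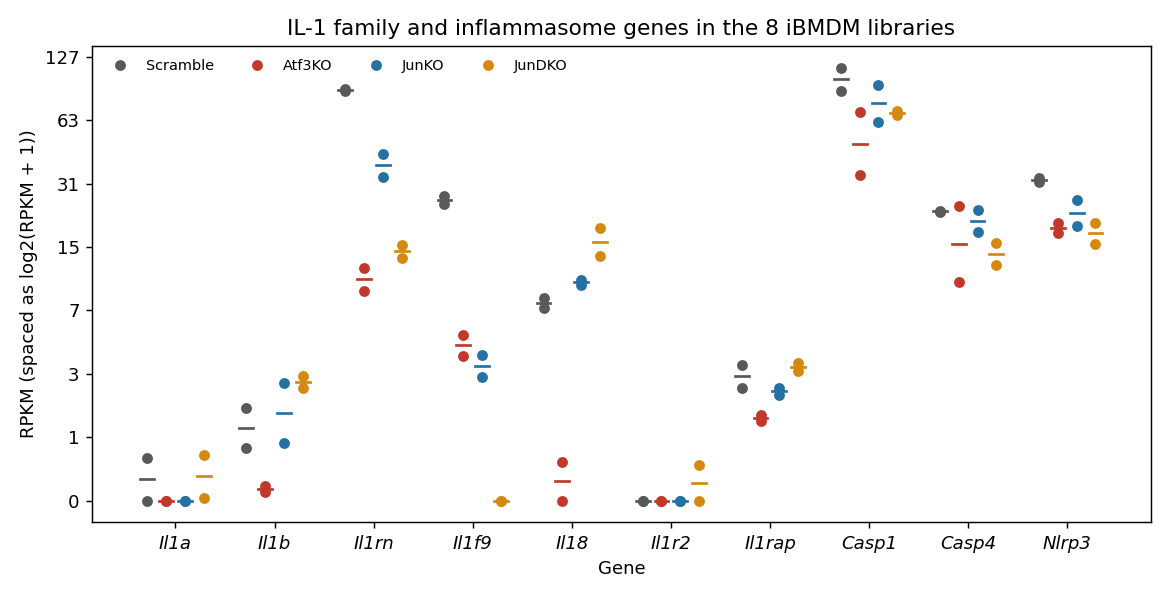
RPKM of the 10 members in the 8 iBMDM libraries, spaced as log2(RPKM + 1). Points are libraries and lines the means of 2 on that scale. Il1rn falls from 87.6 and 89.5 RPKM in Scramble to under 16 RPKM in Atf3KO and JunDKO, Il1f9 is at 0 in both JunDKO libraries, and Il18 is under 1 RPKM in Atf3KO.

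The receptor antagonist and Casp1 were the members with the highest RPKM in both Scramble libraries. Il1rn was at 89.5 and 87.6 RPKM in Scramble, at 33.5 and 43.5 RPKM in JunKO, at 15.3 and 13.3 RPKM in JunDKO and at 11.7 and 8.92 RPKM in Atf3KO, from 57 to 588 reads per library. The 4 groups did not overlap. Over pairs of groups, such a separation was seen for 37.2% (JunKO and Scramble) to 71.7% (Atf3KO and JunDKO) of tested genes. Against Scramble the log2 difference was -2.99 ± 0.21 in Atf3KO (limma-trend adjusted p = 1.41e-04) and -2.55 ± 0.21 in JunDKO (adjusted p = 2.90e-04), and both calls held in all 16 alternatives (adjusted p = 1.03e-05 to 0.00409 and 8.26e-06 to 0.00820). In JunKO the log2 difference was -1.19 ± 0.21 (limma-trend adjusted p = 0.0985), which did not pass. It was called by limma-voom on the recovered reads (adjusted p = 0.0498) and after removal of the trend with GC content (0.0234), and the range over 16 alternatives was 0.0234 to 0.482.

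Il1f9 was at 24.6 and 27.1 RPKM in Scramble, at 5.13 and 3.88 RPKM in Atf3KO and at 3.93 and 2.85 RPKM in JunKO. Both JunDKO libraries had 0 reads, and one of them was the deepest of the series. All 6 knockout libraries lay below both Scramble libraries. Separation from Scramble, in either direction, was seen for 70.8% of tested genes in Atf3KO, 37.2% in JunKO and 61.6% in JunDKO. The log2 differences were -2.29 ± 0.25 for Atf3KO (limma-trend adjusted p = 6.42e-04), -2.62 ± 0.25 for JunKO (adjusted p = 0.00652) and -4.75 ± 0.25 in JunDKO (adjusted p = 2.42e-05). With no reads in JunDKO, that value depended on the pseudocount of 1 and was -2.63 with a pseudocount of 5, -8.02 with 0.1 and -9.28 with limma-voom. Against a floor of 3 reads over the JunDKO group, the level in Scramble was at least 282-fold higher. That bound rests on the depth of JunDKO replicate 2, and against 3 reads in replicate 1 alone it was at least 21.9-fold. Leaving out Scramble replicate 2 ended the call in JunKO (adjusted p = 0.0724, range over 16 alternatives 0.00266 to 0.0724). Those in Atf3KO and JunDKO held in all 16.

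Il1f6, which encodes the related agonist IL-36α and lies between Il1f9 and Il1rn, is named here after its values were seen. It had 10 and 3 reads in Scramble, 2 and 0 in JunKO, and 0 in all Atf3KO and JunDKO libraries. Its level was under 16 RPKM throughout. It reached the mean of 1 RPKM needed for testing only through its Scramble reads, so its tests against Scramble are not used here. It is among the pathway genes counted below as passing the adjusted p in Atf3KO and JunDKO.

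Il18 was at 7.25 and 8.17 RPKM in Scramble, at 9.57 and 10.2 RPKM in JunKO, at 13.5 and 18.6 RPKM in JunDKO and at 0.530 and 0 RPKM in Atf3KO. Those Atf3KO values were 2 reads and 0 reads in libraries deeper than those of Scramble. The Atf3KO libraries were below all others. Atf3KO was separate in either direction from Scramble, JunKO and JunDKO for 70.8%, 68.7% and 71.7% of tested genes. Pooled over libraries, the rate of Il18 reads was 38.3 times higher in Scramble than in Atf3KO (exact 95% interval 9.52 to 335, counting error only). The log2 difference was -2.81 ± 0.27 (limma-trend adjusted p = 4.26e-04), which was no call because neither group reached 16 RPKM. It depended on the pseudocount of 1 and was -1.27 with a pseudocount of 5, -4.96 with 0.1 and -5.32 with limma-voom. In JunDKO the log2 difference from Scramble was 0.96 ± 0.27 (limma-trend adjusted p = 0.0610). At equal library medians it was 0.68 (adjusted p = 0.194), and the adjusted p was 0.0235 to 0.397 over 16 alternatives. In JunKO it was 0.32 ± 0.27 (limma-trend adjusted p = 0.874).

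Il1b and Il1a, the members that rose most with KLA in TGEMs, were low in resting iBMDMs. Il1b was at 0.774 and 1.75 RPKM in Scramble, at 0.170 and 0.103 RPKM in Atf3KO, at 2.63 and 0.871 RPKM in JunKO and at 2.88 and 2.43 RPKM in JunDKO. The Atf3KO values are 1 read in each library, and JunDKO replicate 2 had 60 reads. Against Scramble, with 6 reads, the log2 difference was -0.96 ± 0.40 in Atf3KO (limma-trend adjusted p = 0.0886), and the ratio of read rates was 9.58 (exact 95% interval 1.71 to 97.1). The difference passed the adjusted p with a pseudocount of 0.1 (-2.44, adjusted p = 0.0230) and with limma-voom (-2.84, adjusted p = 0.0237), and was 0.0048 after quantile normalization. In JunDKO the log2 difference from Scramble was 0.73 ± 0.40 (limma-trend adjusted p = 0.282). Il1a had 5 reads over the 8 iBMDM libraries and Il1r2 had 1, so no difference between groups was detectable at this depth. Il1rn was 116 and 37.4 times the sum of Il1a and Il1b in Scramble, 69.1 and 86.6 times in Atf3KO, 12.7 and 49.9 times in JunKO and 4.32 and 5.40 times in JunDKO. Atf3KO lay within the Scramble range and JunKO overlapped it, and the Scramble ratios rest on 2 and 4 Il1b reads.

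**Figure D3:**
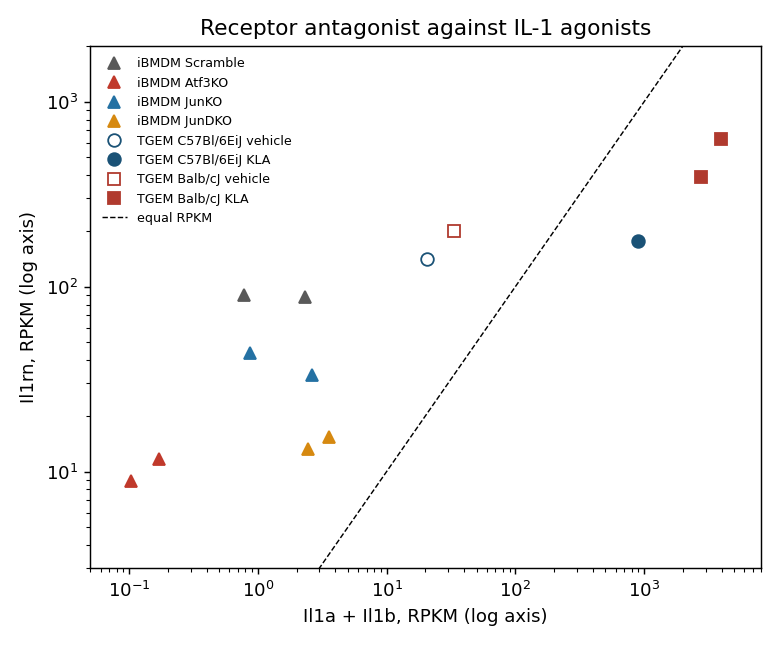
Il1rn RPKM against the sum of Il1a and Il1b RPKM in the 13 libraries, both on log axes, with a dashed line of equal RPKM. Triangles are iBMDM libraries, circles C57Bl/6EiJ and squares Balb/cJ TGEM libraries, open for vehicle and filled for KLA. Only the 3 KLA libraries lie to the right of the line, and JunDKO lies nearer to it than the other iBMDM groups.

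The sensor and the caspases were compared next. Nlrp3 was at 33.2 and 31.5 RPKM in Scramble, at 17.7 and 19.8 RPKM in Atf3KO, at 25.9 and 19.1 RPKM in JunKO and at 15.6 and 19.8 RPKM in JunDKO. All 6 knockout libraries were below both Scramble libraries. Such a separation, in either direction, was seen for 70.8% of tested genes in Atf3KO, 37.2% in JunKO and 61.6% in JunDKO. The log2 difference was -0.76 ± 0.21 in Atf3KO (limma-trend adjusted p = 0.0237), -0.84 ± 0.21 in JunDKO (adjusted p = 0.03997) and -0.52 ± 0.21 in JunKO (adjusted p = 0.594). None reached 2-fold. Leaving out any 1 of the 4 libraries compared moved the adjusted p over 0.05, to 0.0530 to 0.0958 for Atf3KO and 0.107 to 0.252 for JunDKO. Nlrp3 was called in JunDKO at equal library medians (-1.13, adjusted p = 0.0108), after quantile normalization (-1.07) and after removal of the trend with GC content (-1.03).

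Casp1 was at 87.3 and 113 RPKM in Scramble and at 69.2 and 34.1 RPKM in Atf3KO replicates 1 and 2. The Atf3KO libraries differed by more than the gap between the groups. The log2 difference was -1.02 ± 0.34 (limma-trend adjusted p = 0.0419), a call that held in 8 of 16 alternatives (adjusted p = 0.00687 to 0.263). It was lost without Atf3KO replicate 2 (-0.51, adjusted p = 0.209), Scramble replicate 1 (0.0796) or Scramble replicate 2 (0.213), and after removal of the trend with GC content (-0.31, adjusted p = 0.263). JunKO libraries were at 62.1 and 92.9 RPKM (-0.38 ± 0.34, limma-trend adjusted p = 0.886) and JunDKO libraries at 66.5 and 70.0 RPKM (-0.54 ± 0.34, adjusted p = 0.339). Casp4 was at 22.8 and 22.4 RPKM in Scramble, at 24.1 and 9.94 RPKM in Atf3KO, at 22.9 and 17.9 RPKM in JunKO and at 15.7 and 12.1 RPKM in JunDKO, and passed in no comparison with Scramble (limma-trend adjusted p = 0.264 to 0.973). Without Atf3KO replicate 1 it was called lower in Atf3KO (-1.11, adjusted p = 0.0156). Il1rap was at 2.43 to 3.41 RPKM in Scramble and at 1.40 and 1.54 RPKM in Atf3KO (-0.66 ± 0.26, limma-trend adjusted p = 0.0748), a difference of -0.03 once the trend with GC content was removed. In JunKO and JunDKO it differed from Scramble by -0.23 ± 0.26 and 0.14 ± 0.26 (limma-trend adjusted p = 0.917 and 0.767).

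**Figure D4:**
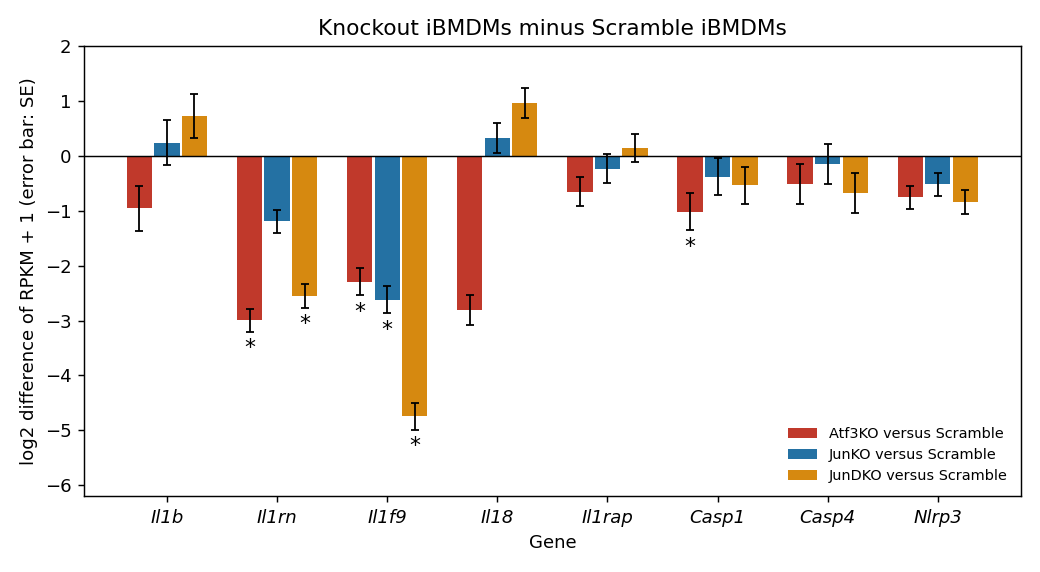
Log2 difference of RPKM + 1 between each knockout and Scramble for the 8 tested members, as bars with SE from limma-trend over 8 libraries. Asterisks mark calls. Il1rn is lower by more than 2 in Atf3KO and JunDKO, Il1f9 is lower by more than 2 in all 3 knockouts, and Il18 is lower in Atf3KO, where it was under 16 RPKM.

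Values that moved with these groups were measured beside them. Across 10645 genes the Atf3KO difference from Scramble correlated with GC content at a Spearman's rho of 0.49, against 0.11 in JunKO and 0.09 in JunDKO, a description over genes that share their libraries. Members had a GC content of 41.1% to 51.0%. After removal of the trend, a setting chosen after the values were seen, the Atf3KO differences were -2.88 for Il1rn, -1.88 for Il1f9, -2.27 for Il18 and -0.83 for Nlrp3. Atf3KO replicate 2 carries a later label date than the rest of the iBMDM libraries, and its Jund level was 83.0 RPKM against 22.6 RPKM in replicate 1. Of 8 neutrophil markers, S100a8 was at 21.8 to 41.1 RPKM in the Scramble, Atf3KO and JunKO libraries and at 0 in both JunDKO libraries, while S100a9, Ly6g, Cxcr2, Elane, Mpo and Camp were at 0 in all 8. The part of these in the results was not tested.

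The knockouts were also compared with each other. Atf3KO had less Il1rn than JunKO (-1.80 ± 0.21, limma-trend adjusted p = 0.00127), 1 member of 8 called where 9.71% of genes were, with 3 passing the adjusted p where 35.5% of genes did. Those that passed without a call were Il18 (-3.14 ± 0.27, adjusted p = 4.18e-04, and -5.67 to -1.501 over both other pseudocounts and limma-voom) and Il1b (-1.20 ± 0.40, adjusted p = 0.0499). Il1b no longer passed without Atf3KO replicate 1 or 2 (adjusted p = 0.107 and 0.156) or JunKO replicate 1 (0.193), and its adjusted p was 0.0144 to 0.717 over 14 alternatives. With the replicate block it was 0.0686, and after quantile normalization the difference was -0.22. Il1f9 did not pass between them (0.33 ± 0.25, 95% interval -0.24 to 0.89), but did after removal of the trend with GC content (0.74, adjusted p = 0.0328). JunDKO had less Il1rn than JunKO (-1.36 ± 0.21, limma-trend adjusted p = 0.00663), 1 called where 3.50% of genes were, and Il1f9 passed the adjusted p as a second member (-2.12 ± 0.25, adjusted p = 0.00184, and -6.40 to -0.74 over the same settings), where 8.14% of genes did. That Il1rn call was lost without JunDKO replicate 1 (adjusted p = 0.0559), JunDKO replicate 2 (0.0850) or JunKO replicate 2 (0.0611).

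Between Atf3KO and JunDKO, the knockouts with the lowest Il1rn, that gene differed by -0.44 ± 0.21 (95% interval -0.92 to 0.04, limma-trend adjusted p = 0.127). They differed in Il18, lower in Atf3KO (-3.77 ± 0.27, limma-trend adjusted p = 1.00e-04, and -6.49 to -1.99 over both other pseudocounts and limma-voom), 1 member called where 12.2% of genes were. The call was lost without JunDKO replicate 2, since the level then fell under 16 RPKM (-3.55, adjusted p = 0.00370). In all 4 members passed the adjusted p, where 40.7% of genes did. Besides Il18 these were Il1f9, higher in Atf3KO (2.45 ± 0.25, limma-trend adjusted p = 3.70e-04, and 0.92 to 6.70 over both other pseudocounts and limma-voom), Il1b, lower in Atf3KO (-1.68 ± 0.40, adjusted p = 0.0125), and Il1rap, lower in Atf3KO (-0.80 ± 0.26, adjusted p = 0.0405). Il1rap did not pass with any 1 of the 4 libraries left out (limma-trend adjusted p = 0.0839 to 0.142) or with the replicate block (0.0585). Il1b did not pass without Atf3KO replicate 2 (adjusted p = 0.0593), JunDKO replicate 1 (0.0645) or JunDKO replicate 2 (0.0531), and after quantile normalization it differed by -0.56 (adjusted p = 0.335). The Il1rap difference was -0.06 after removal of the trend with GC content.

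For Il1rn, Il1f9 and Il18, each called in a comparison of iBMDM groups, the 3 other genes with the most similar level over the 8 iBMDM libraries were found among 5316 models with a group mean of at least 16 RPKM. These correlations describe 8 libraries in 4 groups and have no test. Closest to Il1rn were Ikbkg, which encodes the NEMO subunit of the IκB kinase (Pearson's r = 0.99), Zwint, which encodes a kinetochore protein (0.99), and the esterase gene Esd (0.98). Ikbkg had group means of 32.1 RPKM in Scramble, 21.2 RPKM in JunKO, 10.4 RPKM in JunDKO and 8.31 RPKM in Atf3KO, the same order as Il1rn. Closest to Il1f9 were the adhesion receptor gene Adgrl2 (0.98), Panx1, which encodes a channel that releases ATP (0.98), and the aldo-keto reductase gene Akr1b8 (0.98). Closest to Il18 were Thoc7, Pmpcb and Rpl15 (each 0.99). Thoc7, of the complex that couples transcription to export, had its lowest mean in Atf3KO (7.41 RPKM) and its highest in JunDKO (43.2 RPKM), as Il18 did.

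The rest of the pathway was read from a list of 51 other receptors, ligands, signalling proteins, sensors and effectors, 50 of them in the table. With KLA 1 of 34 tested was called, Gbp5, an interferon-inducible GTPase known to promote NLRP3 activation, which rose (3.99 ± 0.57, limma-trend adjusted p = 0.0173), where 1.13% of all genes were called. It was at 0.437 and 1.14 RPKM in the C57Bl/6EiJ and Balb/cJ vehicle libraries and at 9.30 RPKM in the C57Bl/6EiJ and 103 and 35.3 RPKM in the Balb/cJ KLA libraries. Between the strains limma-trend called 0 of 34, where 1.16% of all genes were called. The signalling receptor chain Il1r1 was at 1.58 to 4.61 RPKM in TGEMs and at 0 in all iBMDM libraries. The adaptor Pycard was detected in every iBMDM group, with means of 21.6 to 36.6 RPKM.

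In iBMDMs 35 of that list were tested. Against Scramble limma-trend called 2 lower in Atf3KO, 2 lower in JunDKO and 0 in JunKO, where 12.5%, 4.97% and 0.196% of all genes were called in either direction. The adjusted p alone was passed by 16 of the 35 in Atf3KO, where 41.2% of all genes passed, and by 8 in JunDKO, where 11.7% did. None was called higher, but 4 of the 16 in Atf3KO were higher (Gbp5, Nlrx1, Traf6 and Gsdmd), as were 5 of the 8 in JunDKO (Irak1, Nlrc4, Nlrx1, Traf6 and Gsdmd). Those called in Atf3KO were Naip2 (-1.45 ± 0.21, limma-trend adjusted p = 0.00202) and Panx1 (-1.05 ± 0.27, adjusted p = 0.0168). Naip2 encodes a secretion-system sensor of a multigene family whose reads may be shared. Those called in JunDKO were Panx1 (-2.65 ± 0.27, limma-trend adjusted p = 7.24e-04) and Irak3 (-2.37 ± 0.20, adjusted p = 3.45e-04). Irak3 encodes an inhibitor of IL-1 receptor and Toll-like receptor signalling. Irak3 was at 47.5 and 41.1 RPKM in Scramble, at 26.1 and 20.2 RPKM in Atf3KO, at 32.6 and 27.8 RPKM in JunKO and at 8.28 and 7.21 RPKM in JunDKO. JunDKO was therefore the lowest group for this inhibitor, below both JunKO libraries (-1.83 ± 0.20, limma-trend adjusted p = 0.00150). Those 2 groups were separate in either direction for 59.8% of tested genes. Between JunDKO and JunKO 1 of the 35 was called, Irak3, where 3.50% of all genes were. The adjusted p alone was passed by 5 of the 35, where 8.14% of all genes did. Irak3 in JunKO was below Scramble without passing. Between Atf3KO and JunDKO 5 of the 35 were called, where 12.2% of all genes were, and 16 passed the adjusted p, where 40.7% did. Irak3 was higher in Atf3KO than in JunDKO (1.46 ± 0.20, limma-trend adjusted p = 0.00135), as was Ninj1, which encodes a protein of plasma membrane rupture (1.73 ± 0.40, adjusted p = 0.0105). Lower in Atf3KO than in JunDKO were Nek7, an NLRP3 partner (-1.28 ± 0.22, limma-trend adjusted p = 0.00313), Tollip (-1.06 ± 0.19, adjusted p = 0.00394) and Naip2 (-1.01 ± 0.21, adjusted p = 0.00703). None of the list was called between Atf3KO and JunKO by limma-trend, where 9.71% of all genes were, and 8 of the 35 passed the adjusted p alone, where 35.5% of all genes did.

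Across the 8 groups of both cell types the order of levels differed by gene. Il1a, Il1b and Nlrp3 were highest in Balb/cJ KLA and next in C57Bl/6EiJ KLA TGEMs. Il1rn was higher in each TGEM library than in any iBMDM library. Il1f9 was highest in Scramble iBMDMs, and was at most 1.77 RPKM in the 5 TGEM libraries. Casp1 was highest in Scramble iBMDMs at 100.1 ± 18.1 RPKM (SD, n = 2), a level that overlapped that of JunKO. Il18 was highest in JunDKO at 16.1 ± 3.63 RPKM (SD, n = 2) and lowest in Atf3KO. TGEMs and iBMDMs differ in culture, label dates and transformation, and their difference was not tested.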

How the data were processed

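PolyA RNA-seq values of 13 libraries were used, and 4 GRO-seq samples were not analysed here. The authors aligned reads with STAR to mm10 (Balb/cJ reads to their own strain's genome) and deposited RPKM, reads over exons scaled by exon length and library depth, from HOMER. Versions and the strand option were not given in the sources used here. Among values of up to 50 reads, the steps gave whole reads (within 0.05 reads or the rounding of the printed decimals) for 100%, hence depth. Groups came from the labels. RPKM + 1 was log2-transformed, and models averaging 1 RPKM or more were tested with limma-trend (limma 3.58.1, R 4.3.3) and Benjamini-Hochberg adjustment over all tested models. The iBMDM fit held 8 libraries (4 residual degrees of freedom) and the TGEM fit 5, with treatment and strain (2 residual degrees of freedom). The tests were checked on simulated data for the recovery of large changes in genes at higher levels. That check did not cover members with few reads. Ratios of low read counts have exact 95% intervals and floors of 3 reads, covering counting error only. Members were named by symbol. Other pathway genes were named where called, and the 3 nearest genes by Pearson's r for called members, of which those of Casp1 are not reported here. Members and lists were chosen with earlier results of these data known. Alternatives covered the pseudocount, filter, scaling, voom, model and each library left out. Those on GC content, a fit without Atf3KO, the interaction and crossed replicate numbers were chosen after seeing the data.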

Additional observations from a re-analysis of the deposited data

Results flagged for a closer look

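Il18 was higher with KLA in C57Bl/6EiJ and at or below its vehicle level in Balb/cJ. The log2 difference of RPKM + 1 was 1.08 in the single C57Bl/6EiJ pair, from 43 vehicle and 29 KLA reads, and -0.01 and -0.47 in the Balb/cJ KLA libraries against their 1 vehicle library of 19 reads. With 1 library in most groups the difference in sign was not tested on their own. In the interaction of treatment and strain, with 1 residual degree of freedom, Il18 differed by -1.32 ± 0.54 (limma-trend adjusted p = 0.632).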

How the results depend on the processing

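Over 64 results of a member in a comparison, 1008 alternative values were computed. Of these 943 kept their direction and side of the threshold, 19 fell short of it, 18 newly passed and 28 changed sign, none of them a call. In JunKO against Scramble 2 members were called with limma-voom, where 0.243% of genes were, and 2 with the GC trend removed, where 0.526% were (0 to 1 with a library left out). Without an RPKM minimum 3 were called between Atf3KO and JunKO, where 24.1% of genes were (1 to 2 with a library left out), 3 between Atf3KO and JunDKO, where 28.6% were (0 to 1), and 2 between JunDKO and JunKO, where 6.31% were (0 to 1). With no filter 0 members and 0 of 24453 genes were called with KLA (1 to 3 members with a library left out), and the cause was not tested. Between the strains limma-voom called 3 and the fit of all 13 libraries 2.

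Signs changed as follows. Il1b in Atf3KO against Scramble was 0.0048 after quantile normalization. Il1rap in JunDKO against Scramble was -0.086 at equal medians and -0.13 after quantile normalization. With the GC trend removed, Casp4 in Atf3KO was 0.12 against Scramble, Il1rap, Casp1 and Casp4 in Atf3KO were 0.18, 0.042 and 0.24 against JunKO, Casp1 in Atf3KO was 0.34 against JunDKO, and Il18 between strains was -0.026. With a library left out, Casp4 in Atf3KO ranged from -1.11 to 0.090 against Scramble, -0.96 to 0.24 against JunKO and -0.44 to 0.76 against JunDKO. Against JunDKO, Casp1 in Atf3KO ranged from -0.98 to 0.022 and Nlrp3 from -0.075 to 0.25. In JunKO against Scramble, Il1b ranged from -0.24 to 0.72 and Casp4 from -0.32 to 0.019. Il1rap in JunDKO against Scramble ranged from -0.039 to 0.32, and Casp1 in JunDKO against JunKO from -0.44 to 0.13. With KLA, Il18 ranged from -0.24 to 1.08 and Il1rap from -0.081 to 0.52. Between strains, Il1b ranged from -0.38 to 2.09, Il18 from -0.36 to 0.95 and Nlrp3 from -0.62 to 1.51.

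The replicate block used numbers that pair nothing in the labels. Deviations of same-numbered libraries correlated at 0.18 to 0.22 among Scramble, JunKO and JunDKO, which share a label date, and at -0.21 to -0.12 between each of these and Atf3KO. With the block 1320 genes were called in Atf3KO, 8 in JunKO and 506 in JunDKO against Scramble, where 1339, 21 and 531 were without it, and Casp1 in Atf3KO was no longer called (adjusted p = 0.0624). With the Atf3KO numbers crossed 1391 genes were called in Atf3KO, Casp1 among them (adjusted p = 0.00687). With the GC trend removed 822 genes were called in Atf3KO and 56 in JunKO against Scramble, 634 between Atf3KO and JunKO and 75 between strains (main 120). With limma-voom 186 genes were called with KLA (main 117) and 306 between strains, and with all 13 libraries in 1 fit 218 and 285. With no filter on low values, where 24453 models entered the adjustment, 762, 9 and 297 were called in Atf3KO, JunKO and JunDKO against Scramble, 415 and 829 in Atf3KO against JunKO and JunDKO, 187 in JunDKO against JunKO, and 0 with KLA and between strains. Without the RPKM minimum these counts were 3068, 30, 938, 2577, 3057, 675, 158 and 239. In JunKO against Scramble 6 genes were called with a pseudocount of 0.1 and 8 with only those groups, with KLA 71 without strain and 65 with the label date, and between strains 221 among models averaging 4 RPKM. With 2 libraries in each iBMDM group, 1 in most TGEM groups, and 0 to 2 reads of Il18 and 1 read of Il1b in each Atf3KO library, differences of these low genes are limited by depth.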
